A study of Bos taurus with 30 samples.

Results

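Solute carriers are membrane proteins that move sugars, amino acids, ions, metals, nucleosides and vitamins across the membranes of a cell. The genes described here are those whose current symbol starts with SLC and a number, with the erythrocyte anion exchanger SLC4A1 and the glucose transporter SLC2A3 left out. They came to 68 of 3269 named genes, read by 142 of 44407 array features, and belonged to 29 solute carrier families. RNA of bovine (Bos taurus) lymphocytes was hybridised to single-colour Agilent arrays, 1 animal per array. The 4 groups were 8 prednisolone animals and 7 control animals at the second sampling, T2, and the same 8 prednisolone and 7 control animals at the first sampling, T1. The treated animals received the synthetic glucocorticoid prednisolone orally, 30 mg per head each day for 35 days. The labels print this dosing on the control samples too, do not place T1 and T2 relative to it, and give no age, sex or breed. Samples were collected at a slaughterhouse, per the labels.

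Each solute carrier family has a number, and members of a family share sequence and often a type of cargo. Lymphocytes that are activated take up more glucose and more amino acids, and the transporters SLC2A1, SLC7A5 with its partner SLC3A2, and SLC1A5 are well known for this in T cells. Mitochondrial carriers, family 25, exchange nucleotides, phosphate and metabolites across the inner mitochondrial membrane, while family 35 brings nucleotide sugars into the Golgi apparatus and endoplasmic reticulum for glycosylation. Glucocorticoids act through a nuclear receptor that raises or lowers the transcription of many genes in lymphocytes. The roles named below are those known in mammals, mainly from human and rodent genes.

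Each array gave a value for 34506 to 38801 features. On the first principal component of 2230 genes, which held 23.3% of the variance, the prednisolone T2 arrays lay at 9.16 to 14.32 and the control T2 arrays at -5.73 to 4.68. Prednisolone animals 28 and 32 stood apart at T1, at -22.90 and -24.76, while the other 6 prednisolone T1 arrays lay at -10.81 to -3.60 and the control T1 arrays at -4.49 to 1.40. Where leaving out those 2 animals ended a call, the value without them is given. Values below are log2 intensities, and a difference of 1 is a doubling of intensity. Levels are not compared between genes, because each probe has its own brightness. Nothing in the labels says how the animals were housed or whether RNA was handled in batches, so no batch was modelled, and the number of arrays limits the precision.

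Of the 68 genes, 48 were tested. Another 19 lay in the lowest 25% of genes by mean intensity, under a log2 intensity of 3.64, and SLC17A2 had a value on only 2 of the 8 prednisolone T1 arrays. Of all members, 45 had a value on all 30 arrays. A gene passed when its adjusted p from limma, with Benjamini-Hochberg adjustment over all 2446 tested genes, was at most 0.05. In 5 comparisons together 21 of the 48 members passed at least once and 27 never did. RNA came from a mixed cell sample, so fewer cells of a type and less RNA per cell cannot be told apart in any of these differences.

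The comparison of prednisolone with control animals at T2 asked how lymphocytes of treated and control animals differed at the second sampling. Of 48 members 9 passed, 6 higher and 3 lower in prednisolone animals, which is 18.8% of the members beside 18.2% of all tested genes. The rises made up 12.5% of members and 10.7% of all genes, and the falls 6.25% of members and 7.48% of all genes. With the animal as a block 7 members passed, beside 15.4% of all genes. The median difference was 0.03 for the members and 0.04 for all genes. The members' share was thus close to that of the array as a whole. The groups did not overlap for 2 members, SLC35A1 above and SLC5A1 below the controls, or 4.17% beside 4.01% of all genes. By their known roles, the rises took in genes for transport of sialic acid donor, sulfate, zinc, riboflavin and basic amino acids. The falls took in those for glucose, phosphosugars and taurine. Each cargo but zinc rests on a single gene, and several of the calls depended on the fit, as given below.

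SLC35A1 carries CMP-sialic acid into the Golgi, where sialic acid is added to glycoproteins and glycolipids. Its log2 intensity ranged from 9.49 to 9.92 with a median of 9.74 in prednisolone T2 animals, and from 8.74 to 9.48 with a median of 8.98 in control T2 animals. Every treated animal lay above every control, the closest pair being almost level. It rose by 0.66 (SE 0.105, adjusted p = 9.05e-04 from limma), a 1.58-fold difference. The same-family UDP-galactose transporter SLC35A2 and the endoplasmic reticulum carrier SLC35B1 did not pass, at -0.09 and -0.14.

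Among ion and metal transporters, SLC26A11, a sulfate and anion transporter, and the zinc importers SLC39A1 (ZIP1) and SLC39A3 (ZIP3) rose. SLC26A11 ranged from 10.17 to 10.73 (median 10.42) in prednisolone T2 animals and from 9.31 to 10.47 (median 9.61) in control T2 animals, a rise of 0.72 (SE 0.146, adjusted p = 0.00341). Only control animal 23, at 10.47, reached into the treated range, since the other controls lay at 9.31 to 9.76. SLC39A1 ranged from 9.63 to 10.44 (median 10.15) in prednisolone T2 animals and from 9.09 to 9.87 (median 9.46) in control T2 animals, a rise of 0.65 (SE 0.148, adjusted p = 0.00701). SLC39A3 ranged from 6.92 to 7.72 (median 7.14) in prednisolone T2 animals and from 6.29 to 7.24 (median 6.73) in control T2 animals, a rise of 0.47 (SE 0.146, adjusted p = 0.0352). The ranges of both zinc importers overlapped between the groups, although each of the 8 treated animals exceeded the control mean. The third measured zinc importer, SLC39A5, stood 0.32 higher and did not pass (adjusted p = 0.335). SLC39A3 no longer passed when any 1 of animals 17, 18, 22, 23, 26, 27 or 30 was left out, the highest adjusted p being 0.0733, nor without animals 28 and 32 together (0.50, adjusted p = 0.0616).

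SLC52A2, a riboflavin importer, ranged from 12.91 to 13.17 (median 13.01) in prednisolone T2 animals and from 12.41 to 13.05 (median 12.59) in control T2 animals. The treated arrays formed a narrow band at the top of the control range, and the rise was 0.34 (SE 0.09, adjusted p = 0.0163). Without animals 28 and 32 the rise was 0.31 and did not pass (adjusted p = 0.0558). SLC3A1, the heavy chain of the transporter for cystine and basic amino acids, ranged from 9.59 to 10.10 (median 9.88) in prednisolone T2 animals and from 9.25 to 9.60 (median 9.48) in control T2 animals. The ranges met only at their edge, and the rise was 0.42 (SE 0.086, adjusted p = 0.0035).

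SLC6A6, the taurine transporter, fell by 0.52 at T2 (SE 0.162, adjusted p = 0.0357). Its log2 intensity ranged from 6.99 to 7.88 (median 7.55) in prednisolone T2 animals and from 7.72 to 8.59 (median 7.87) in control T2 animals, with overlap. With the animal as a block it did not pass (adjusted p = 0.0792), and it was lost when any 1 of animals 17, 18, 22, 27, 28, 29 or 30 was left out, or animals 28 and 32 together (-0.57, adjusted p = 0.0518). SLC37A2, a phosphosugar and phosphate exchanger of the endoplasmic reticulum, fell by 0.27 (SE 0.084, adjusted p = 0.034). It ranged from 9.91 to 10.33 (median 10.11) in prednisolone T2 animals and from 10.13 to 10.60 (median 10.36) in control T2 animals. This call was also lost with the animal as a block (adjusted p = 0.217) and without any 1 of animals 17, 18, 22, 23, 27, 28, 29 or 30, or animals 28 and 32 together (-0.28, adjusted p = 0.0638). The other amino acid carriers measured, among them the glutamine transporter SLC1A5 at 0.57 (adjusted p = 0.213), did not pass at T2.

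**Figure D1:**
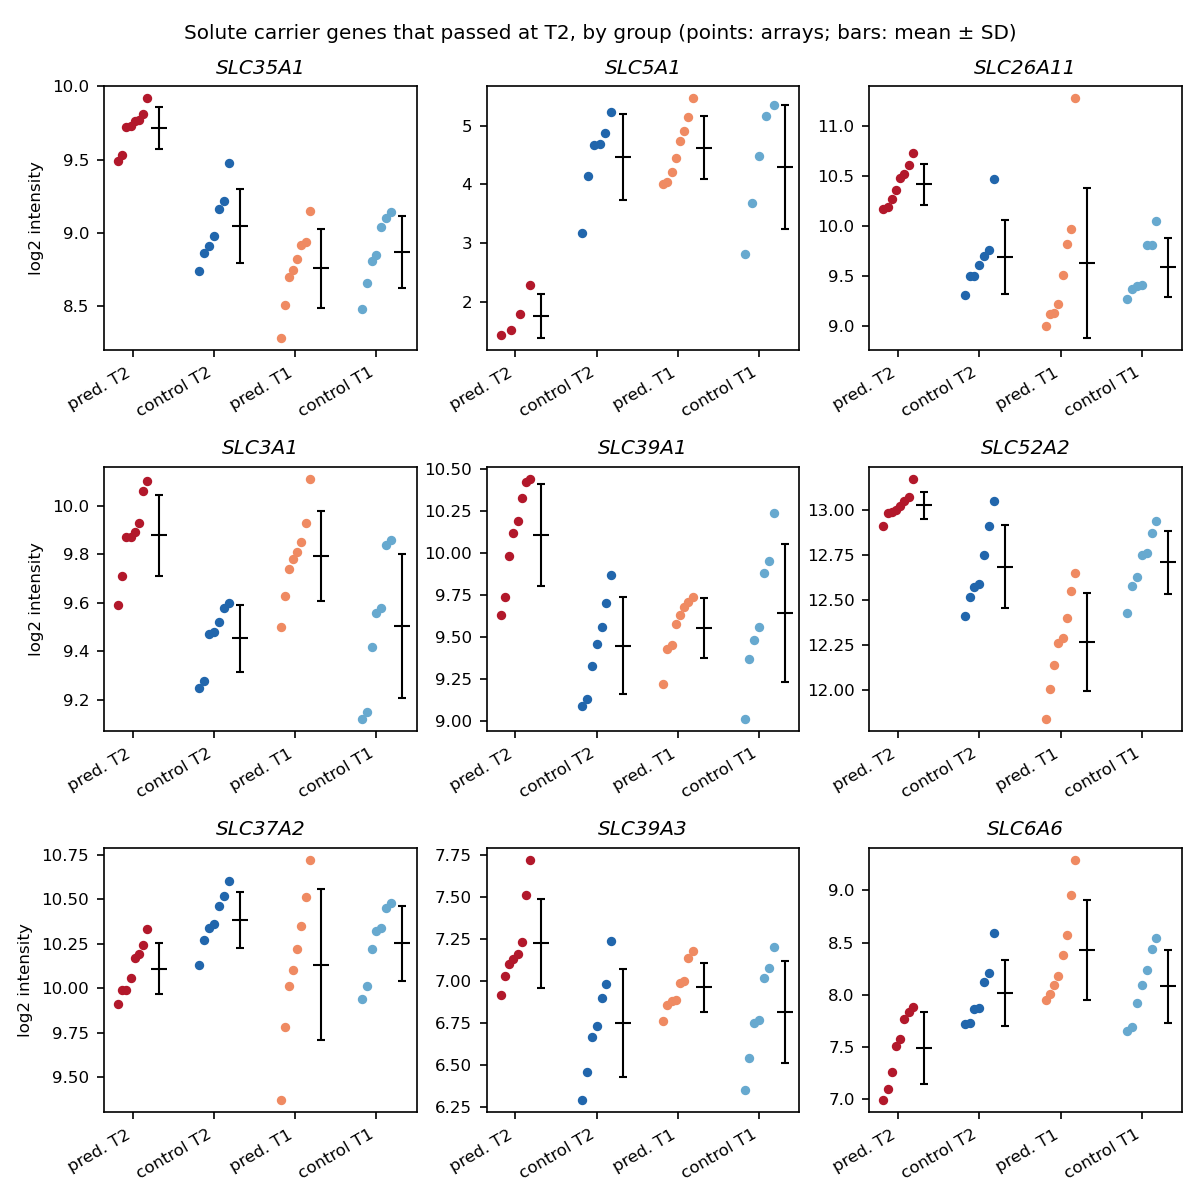
Log2 intensity on each array (points) of the 9 solute carrier genes that passed at T2, in prednisolone T2, control T2, prednisolone T1 and control T1 animals, with group means and SDs (bars). SLC35A1 and SLC5A1 show no overlap between prednisolone and control animals at T2, and SLC5A1 has only 4 points in the prednisolone T2 group because the other 4 arrays hold no value.

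SLC5A1 (SGLT1), the sodium and glucose cotransporter best known from the intestine and kidney, had the greatest difference of any member at T2 and sat close to the lowest values of the arrays. In prednisolone T2 animals it had a value on 4 of 8 arrays, at 1.43, 1.52, 1.79 and 2.28, and was null on the other 4. In control T2 animals it had a value on 6 of 7 arrays, at 3.17 to 5.24 with a median of 4.68. The lowest value of each array, over all features, lay between 0.74 and 1.40. All 4 treated values thus lay just above that limit and below every control value. The fitted fall was 2.71 on the log2 scale (SE 0.359, adjusted p = 9.93e-04), and this fit left out the 5 null arrays. The size of this fall is uncertain, since the rule that made cells null is not given in the sources used here. With intensities under 16 raised to 16 the difference was -0.60 and did not pass (adjusted p = 0.0842), and with the brighter of its 2 features alone it was -1.85 and did not pass (adjusted p = 0.17).

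At T1 SLC5A1 had a value on all 8 prednisolone arrays, at 4.01 to 5.47 with a median of 4.59, and on 5 of 7 control arrays, at 2.82 to 5.35 with a median of 4.49. The prednisolone group thus held fewer values at T2 than at T1, and each of them was lower than every T1 value of the same group. The 4 prednisolone animals measured at both times were all lower at T2, by 2.66 to 3.31 on the log2 scale. Of the 4 control animals measured at both times 2 were higher and 2 lower, with changes of -0.49 to 2.05. Of the other sodium-coupled sugar and inositol carriers, the glucose transporter SLC5A2 (SGLT2) stood 0.29 higher at T2 and did not pass (SE 0.103, adjusted p = 0.0609), though it did without animals 28 and 32. The myo-inositol transporter SLC5A3 stood at -0.21 (adjusted p = 0.485), while SLC5A10 and SLC5A11 were too dim to test. The ubiquitous glucose transporter SLC2A1 differed by -0.21 (SE 0.108, adjusted p = 0.22), from 11.03 to 11.84 in prednisolone T2 animals and from 11.40 to 11.68 in control T2 animals.

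**Figure D2:**
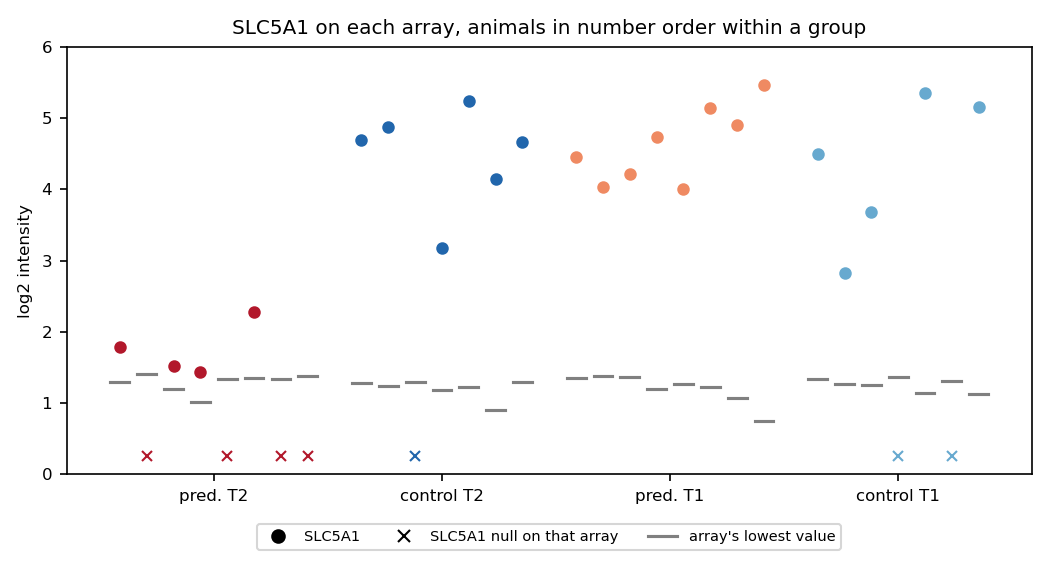
Log2 intensity of SLC5A1 on each of the 30 arrays by group (dots), arrays on which it was null (crosses, drawn below the scale of values), and the lowest value of each array over all features (grey lines). The 4 prednisolone T2 values of 1.43 to 2.28 lie just above the grey lines, and the control T2 values lie at 3.17 to 5.24.

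The comparison at T1 asked whether the same animals differed at the first sampling. In limma fitted on the T1 arrays alone none of the 48 members passed, beside 0.286% of all tested genes (7 of 2446). At an unadjusted p under 0.05 there were 15 members, 31.2% of them, beside 21.3% of all genes. The median difference was 0.12 for the members and 0.03 for all genes. In a fit of all 30 arrays with the animal as a block, 9 members passed, 18.8% of them beside 9.57% of all genes. Of these, 6 were higher (12.5% beside 6.26%) and 3 lower (6.25% beside 3.31%) in prednisolone animals. None of the 9 passed in that fit once animals 28 and 32 were left out, when 11 genes in all passed. No member had groups that did not overlap at T1, beside 0.204% of all genes.

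SLC1A5 (ASCT2), which imports glutamine and other neutral amino acids, differed most among the 10 members of smallest p. It ranged from 12.10 to 14.42 (median 12.94) in prednisolone T1 animals and from 9.54 to 12.89 (median 11.26) in control T1 animals. All 8 treated animals lay above the control mean, the controls were widely spread, and the highest value was that of animal 32, while the remaining 7 lay at 12.10 to 13.03. The difference was 1.62 (SE 0.421, adjusted p = 0.0628, or 0.00875 with the animal as a block). Without animals 28 and 32 it was 1.44, with adjusted p = 0.0598 in the fit with the block.

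Among the transporters of amino acids and related amines, the glycine transporter SLC6A9 stood 0.65 higher in prednisolone T1 animals (adjusted p = 0.0974, or 0.0363 with the block), at 11.19 to 12.56 against 10.93 to 11.59 in control T1 animals. The serotonin transporter SLC6A4 stood at -0.49 (adjusted p = 0.104, or 0.0363 with the block), at 7.82 to 8.75 against 8.40 to 9.42. The ranges of both genes overlapped between the groups. SLC43A3, placed with amino acid carriers by its family number but known as a nucleobase transporter, stood at -0.78 on 6 prednisolone and 7 control arrays and did not pass in either fit (adjusted p = 0.142, or 0.105 with the block).

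Other members of smallest p at T1 belonged to several classes. SLC52A2, the riboflavin importer that rose at T2, stood at -0.44 at T1 (adjusted p = 0.0762, or 0.0151 with the block), with 11.84 to 12.65 in prednisolone T1 animals and 12.43 to 12.94 in control T1 animals. SLC12A2 (NKCC1), the sodium, potassium and chloride cotransporter, stood at -0.52 (adjusted p = 0.089, or 0.0225 with the block). SLC11A1 (NRAMP1), a metal transporter of phagosomes in macrophages and neutrophils, stood at 0.65 (adjusted p = 0.0976, or 0.0443 with the block). For these 3 genes the 2 groups overlapped. SLC18A2, which loads amines into vesicles, stood at 0.48 on 7 arrays of each group (adjusted p = 0.0968, or 0.036 with the block). The citrate carrier SLC25A1 stood at 0.59 (adjusted p = 0.101, or 0.0195 with the block) and the ADP/ATP carrier SLC25A6 at 0.29 (adjusted p = 0.139, or 0.0453 with the block). After animals 28 and 32 were left out SLC25A1 stood at 0.64, and the other 8 of these 9 members lay closer to 0 than before, such as SLC52A2 at -0.33 and SLC6A9 at 0.49.

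**Figure D3:**
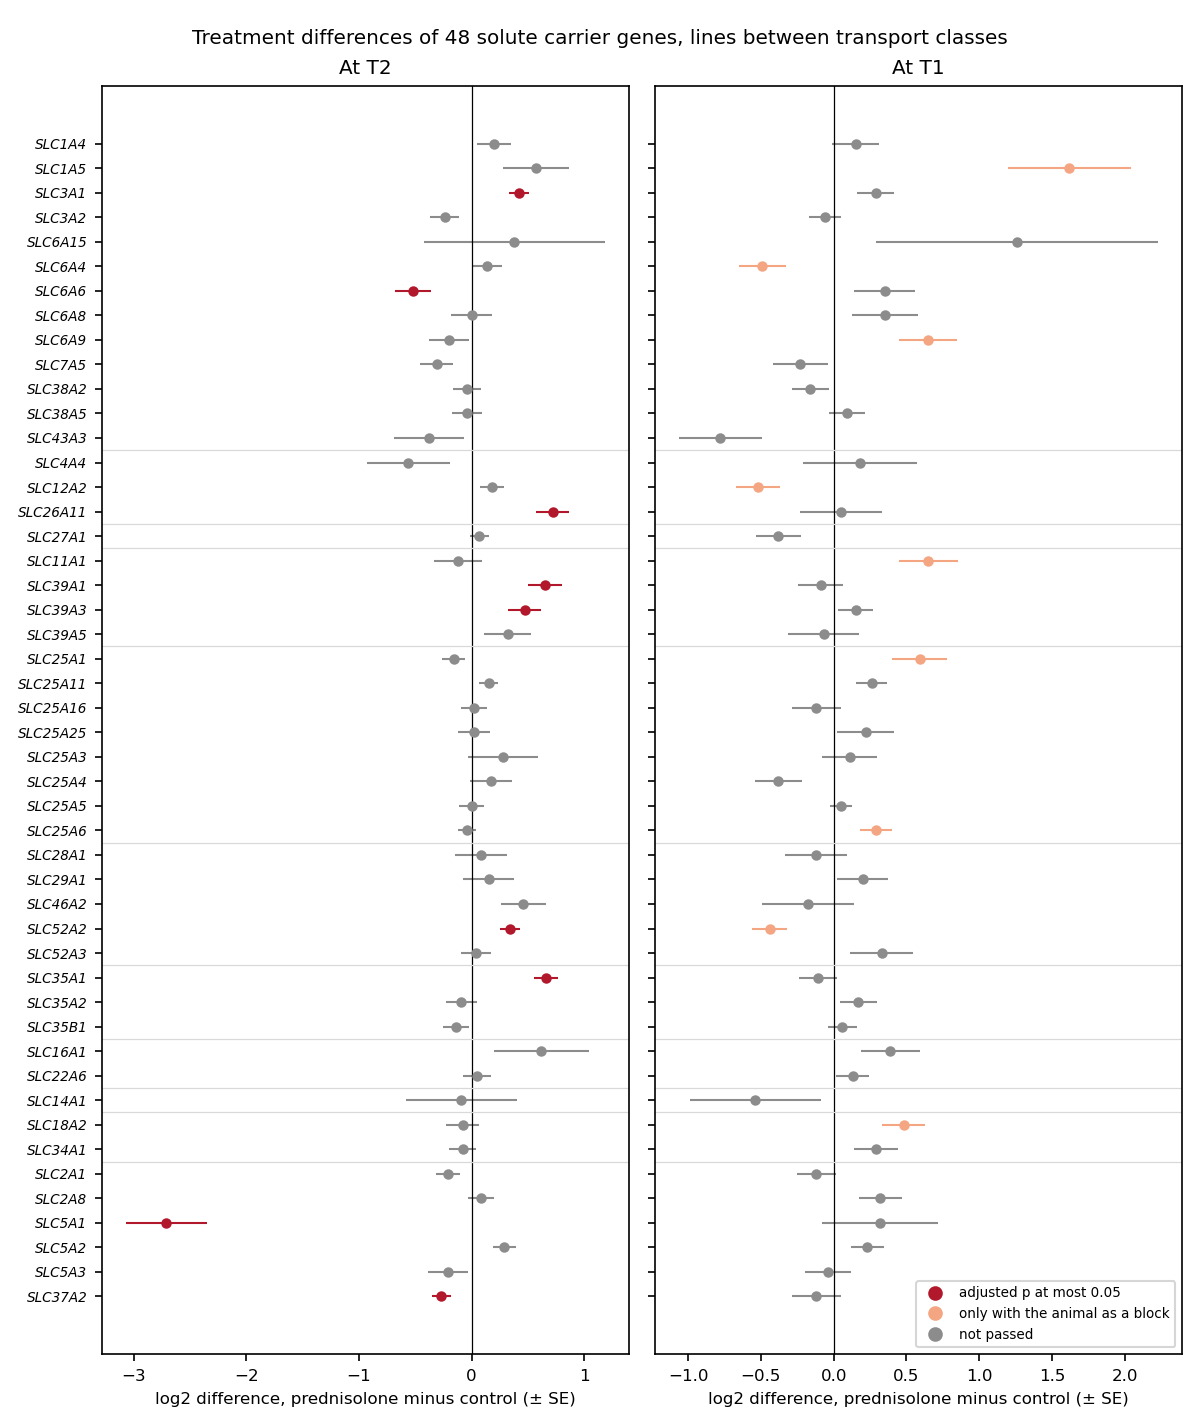
Log2 difference between prednisolone and control animals with its SE for the 48 tested solute carrier genes, at T2 (left) and at T1 (right), grouped by transport class. At T2, 9 genes passed; at T1 none did in the fit of the T1 arrays, and the 9 in lighter colour passed only with the animal as a block and all 8 prednisolone animals included.

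The comparison of T2 with T1 within prednisolone animals asked what changed between samplings in that group. The labels do not place either sampling relative to the dosing, and no control array enters this comparison. Of 48 members 18 passed, 8 higher and 10 lower at T2, which is 37.5% of members beside 37.4% of all tested genes. The rises were 16.7% of members beside 21.6% of all genes, and the falls 20.8% beside 15.9%. The median difference was -0.01 for members and 0.04 for all genes. T1 and T2 did not overlap for 4 members, or 8.33% beside 9.48% of all genes. They were SLC35A1 and SLC52A2, higher at T2, and SLC6A6 and SLC5A1, lower at T2. With the animal as a block 22 members passed beside 45.9% of all genes.

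The sialic acid donor and riboflavin transporters were higher at T2 than T1 without overlap. SLC35A1 had 9.49 to 9.92 in prednisolone T2 animals against 8.28 to 9.15 in prednisolone T1 animals, a rise of 0.96 (SE 0.108, adjusted p = 9.72e-06). SLC52A2 had 12.91 to 13.17 against 11.84 to 12.65 in the same order of groups, a rise of 0.76 (SE 0.1, adjusted p = 3.25e-05). All 8 animals were higher at T2 for both genes. The spread of SLC52A2 was also narrower at T2, with an SD of 0.07 at T2 and 0.27 at T1, a description that was not tested.

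Among amino acid transporters, SLC6A6 had 6.99 to 7.88 in prednisolone T2 animals against 7.95 to 9.29 in prednisolone T1 animals, a fall of 0.94 (SE 0.199, adjusted p = 0.00162). SLC1A5 fell by 1.0 (SE 0.28, adjusted p = 0.00997) and SLC6A9 by 0.67 (SE 0.213, adjusted p = 0.0209), each in 8 of 8 animals. SLC6A4, the serotonin transporter, placed here by its family number, rose by 0.45 (SE 0.121, adjusted p = 0.0075), also in 8 of 8. Of 13 tested members of the amino acid families, 3 thus fell, 1 rose and 9 did not pass, while 15.9% of all tested genes fell and 21.6% rose. The heavy chain SLC3A2 and its light chain SLC7A5, which together import leucine and other large neutral amino acids, were among the 9.

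In the mitochondrial carrier family, 1 of 8 tested members rose and 3 fell between samplings in prednisolone animals. Of all tested genes 21.6% rose and 15.9% fell. The ADP/ATP carrier SLC25A4 rose by 0.60 (SE 0.142, adjusted p = 0.00358), with 8.78 to 9.18 at T2 and 7.86 to 8.91 at T1. SLC25A6, another ADP/ATP carrier, fell by 0.28 (SE 0.081, adjusted p = 0.0122), and SLC25A5, the third, differed by -0.01 and did not pass. The 3 genes encode closely related proteins, and whether their probes share transcripts was not tested. The phosphate carrier SLC25A3 fell by 0.51 (SE 0.123, adjusted p = 0.00386), a call lost with the animal as a block (adjusted p = 0.055). SLC25A3 was also lower at T2 in 6 of 7 control animals, with a mean change of -0.68. The citrate carrier SLC25A1 fell by 0.35 (SE 0.108, adjusted p = 0.0165).

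Among ion, metal and lipid transporters SLC26A11 rose by 0.78 (adjusted p = 0.0257), SLC39A1 by 0.55 (adjusted p = 0.00232), SLC12A2 by 0.52 (adjusted p = 0.00915) and the fatty acid transport protein SLC27A1 by 0.46 (adjusted p = 0.0101). SLC11A1 fell by 0.55 (adjusted p = 0.0398), the amine carrier SLC18A2 by 0.38 (adjusted p = 0.0299, on 7 arrays of each group) and the inositol carrier SLC5A3 by 0.45 (adjusted p = 0.0272). In control animals SLC5A3 was also lower at T2 in 6 of 7, with a mean change of -0.28. SLC5A1 fell by 2.86 (adjusted p = 1.25e-05) on 4 of 8 T2 arrays, again near the lowest intensities. With intensities under 16 raised to 16 this fall was 0.62 and did not pass (adjusted p = 0.0723). With the block SLC2A1 (-0.30, adjusted p = 0.0167), SLC35B1 (-0.26, adjusted p = 0.0194), SLC39A5 (0.62, adjusted p = 0.0192), SLC5A2 (0.23, adjusted p = 0.0361) and the phosphate transporter SLC34A1 (-0.28, adjusted p = 0.0498) passed as well. Of these, SLC35B1 (-0.18, adjusted p = 0.169) and SLC34A1 (-0.27, adjusted p = 0.152) did not pass with the block once animals 28 and 32 were left out. With its brightest feature alone and no block, SLC34A1 stood at -0.08 (adjusted p = 0.711). Control animals were also higher at T2 for SLC39A5 in 7 of 7 (mean change 0.22) and for SLC5A2 in 6 of 7 (0.17). For SLC2A1 they were also lower in 5 of 7 (mean change -0.22). The mean control changes of SLC35B1 and SLC34A1 were -0.06 and 0.09. Without animals 28 and 32, SLC26A11 (0.71, adjusted p = 0.128), SLC6A9 (-0.48, adjusted p = 0.167), SLC18A2 (-0.32, adjusted p = 0.137), SLC25A6 (-0.23, adjusted p = 0.103), SLC27A1 (0.32, adjusted p = 0.0535) and SLC6A4 (0.36, adjusted p = 0.0554) did not pass.

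Within control animals no member passed between T2 and T1, beside 0.0% of all tested genes. At an unadjusted p under 0.05 there was no member either, while 10.0% of all genes were below it. With the animal as a block none of the members passed and 1.59% of all genes did. In that fit 2 members, or 4.17%, had an unadjusted p under 0.05, beside 16% of all genes. The median difference was 0.06 for the members and 0.04 for all genes.

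The interaction of treatment and time, which takes the treatment difference at T2 minus that at T1, tested whether the change between samplings differed between prednisolone and control animals. It shares its arrays with the comparisons above. Of 48 members 9 passed, 5 above 0 and 4 below 0, which is 18.8% of members beside 17.7% of all tested genes. The shares were 10.4% beside 9.12% above 0, and 8.33% beside 8.59% below 0. For each of the 9 the treatment difference had opposite signs at T2 and T1, a pattern that passing this test favours. With the animal as a block 13 members passed beside 26% of all genes, the added genes being SLC11A1, SLC18A2, SLC25A6 and SLC27A1. Without animals 28 and 32 and without the block 4 passed, SLC52A2, SLC5A1, SLC35A1 and SLC12A2. With the block and without these animals 9 passed, 8 of them among the 9 first named. In that fit SLC6A9 (-0.66, adjusted p = 0.0546), SLC18A2 (-0.52, adjusted p = 0.0631), SLC25A6 (-0.28, adjusted p = 0.123) and SLC27A1 (0.31, adjusted p = 0.128) did not pass.

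The carriers above 0 were SLC52A2 (0.78, SE 0.149, adjusted p = 8.94e-04), SLC35A1 (0.78, SE 0.169, adjusted p = 0.00243), SLC12A2 (0.70, SE 0.19, adjusted p = 0.0128), SLC39A1 (0.74, SE 0.218, adjusted p = 0.0183) and SLC6A4 (0.64, SE 0.209, adjusted p = 0.0339). SLC52A2 changed by 0.33 to 1.21 in the 8 prednisolone animals and by -0.24 to 0.33 in the 7 control animals. SLC35A1 changed by 0.61 to 1.22 in prednisolone animals and by -0.16 to 0.45 in control animals. For SLC35A1 the animals' changes did not overlap between treatments, and for SLC52A2 they met at 0.33. For SLC12A2, SLC39A1 and SLC6A4 the changes overlapped, and all 8 prednisolone animals lay above the mean control change. The share of all tested genes without such overlap was not counted.

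The carriers below 0 were SLC5A1 (-3.03, SE 0.578, adjusted p = 0.00136), SLC25A1 (-0.75, SE 0.217, adjusted p = 0.017), SLC6A6 (-0.87, SE 0.271, adjusted p = 0.0258) and SLC6A9 (-0.85, SE 0.274, adjusted p = 0.0308). SLC6A6 changed by -1.53 to -0.11 in prednisolone animals and by -0.71 to 0.93 in control animals. SLC25A1 changed by -0.56 to 0.10 in prednisolone animals and by -0.31 to 1.11 in control animals, so that part of its difference lay in the controls. With intensities under 16 raised to 16, SLC5A1 stood at -0.62 and did not pass (adjusted p = 0.309).

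**Figure D4:**
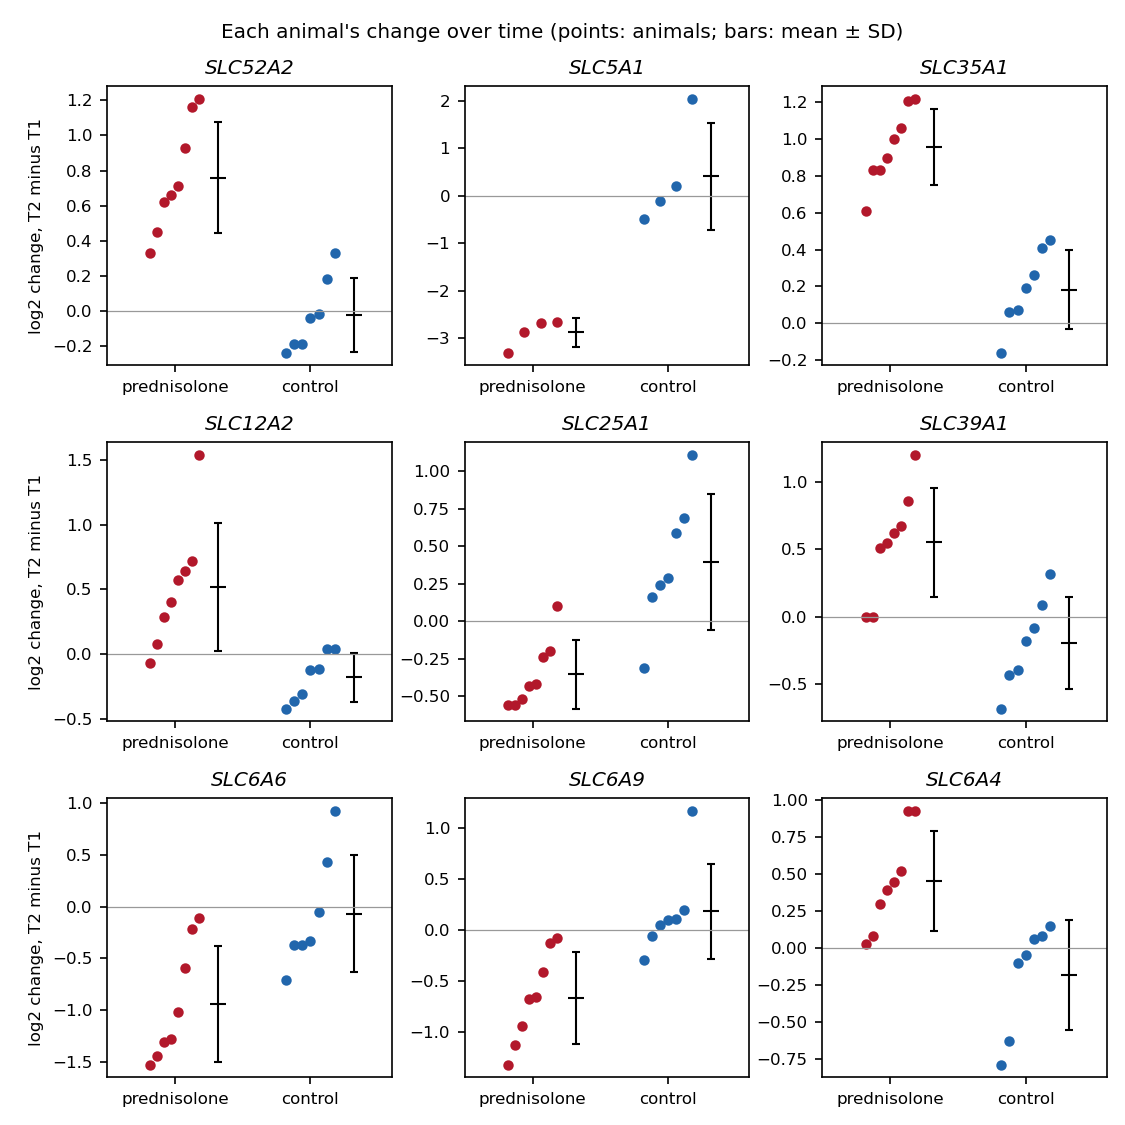
Change of log2 intensity between samplings, T2 minus T1, of each animal (points) with group means and SDs (bars), for the 9 solute carrier genes whose change differed between prednisolone and control animals. For SLC35A1 and SLC5A1 the animals of the 2 treatments do not overlap, for SLC52A2 they meet at 0.33, and SLC5A1 rests on 4 animals of each.

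The 20 members left out of the tests had group medians of 1.33 to 4.04, and their levels are given as a description. In the sugar families these were SLC2A2, SLC2A4, SLC2A5, SLC2A12, SLC5A10 and SLC5A11, known mainly from liver, muscle, intestine or kidney. The fructose transporter SLC2A5 had a median of 2.25 in prednisolone T2 animals, 3.13 in control T2 animals, 2.63 in prednisolone T1 animals and 3.05 in control T1 animals. The insulin-regulated glucose transporter SLC2A4 had the widest spread of them, from 1.47 to 8.25 in prednisolone T2 animals and from 3.49 to 5.45 in control T2 animals. In the amino acid families the dim members were the glutamate transporters SLC1A1 and SLC1A3, the noradrenaline transporter SLC6A2, SLC7A9, SLC38A3 and SLC38A4, with group medians of 1.33 to 2.94. The sodium and calcium exchangers SLC8A1 and SLC24A1, SLC26A10, the organic anion transporters SLC22A7 and SLC22A8, the mitochondrial carrier SLC25A21, the phosphate transporter SLC34A2 and SLC17A2 made up the rest. These 20 genes held most null cells of the members, at 11.9% of their cells in prednisolone T2, 14.3% in control T2, 18.8% in prednisolone T1 and 10.0% in control T1 animals.

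**Figure D5:**
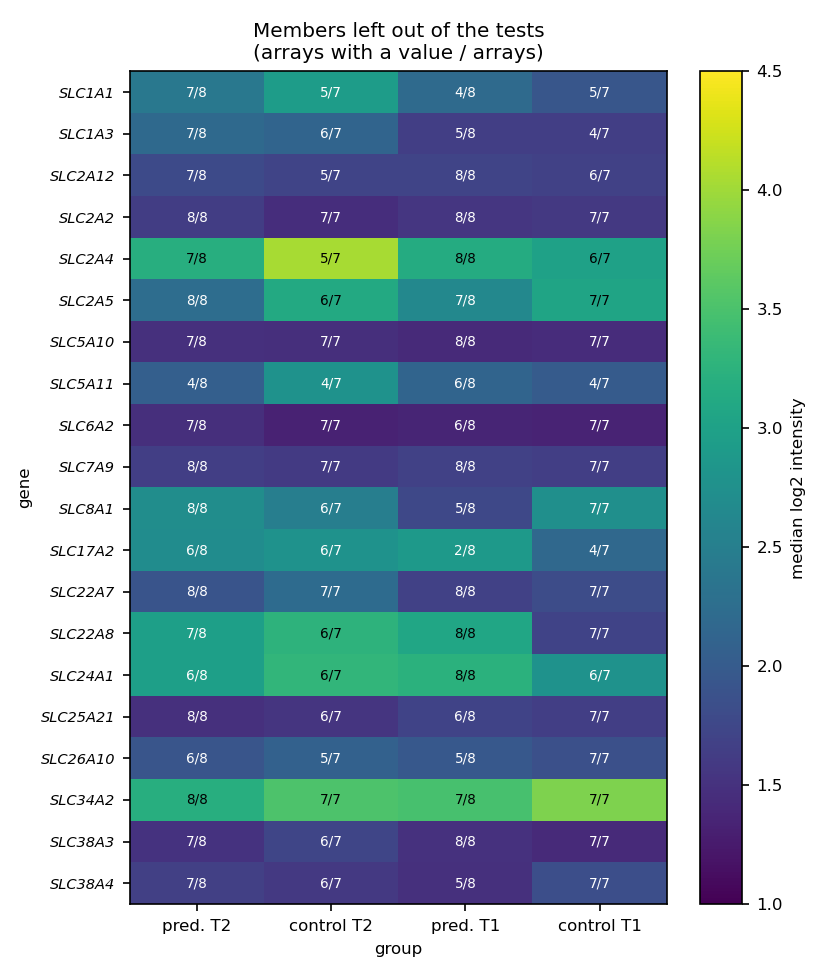
Median log2 intensity in each group (colour) of the 20 solute carrier genes left out of the tests, with the number of arrays that held a value out of all arrays of the group. Colours are to be read along a row, since probes differ in brightness; SLC17A2 held a value on 2 of 8 prednisolone T1 arrays.

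The 21 tested members not yet given with values, or given only beside a family member, did not pass in any of the 5 comparisons. The lowest adjusted p among them was 0.127, or 0.0882 with the animal as a block, and they are named here outside the naming rule. They were the amino acid carriers SLC1A4, SLC3A2, SLC6A15, SLC7A5, SLC38A2 and SLC38A5 and the creatine transporter SLC6A8, the bicarbonate cotransporter SLC4A4, the mitochondrial SLC25A5, SLC25A11, SLC25A16 and SLC25A25, the nucleoside transporters SLC28A1 and SLC29A1, SLC46A2, the riboflavin transporter SLC52A3, SLC35A2, the monocarboxylate transporter SLC16A1, the organic anion transporter SLC22A6, the urea transporter SLC14A1 and the glucose transporter SLC2A8. The leucine importer SLC7A5 ranged from 10.79 to 11.72 in prednisolone T2 animals and from 11.32 to 12.12 in control T2 animals (difference -0.31, adjusted p = 0.18). Its partner SLC3A2 ranged from 10.88 to 11.58 and from 11.24 to 12.07 in the same groups (difference -0.24, adjusted p = 0.245). The glutamine transporters SLC38A2 and SLC38A5 each differed by -0.04.

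Partner proteins of the carriers were taken from 4 lists, to be read beside the 10.7% of all tested genes that rose and the 7.48% that fell at T2. Of 4 tested sodium pump and scaffold genes ATP1B3, a sodium pump subunit, rose by 0.68 at T2 in prednisolone animals (adjusted p = 0.0122). None of 3 ABC transporters passed at T2. Of 15 subunits of the proton pump that acidifies lysosomes 3 rose and 2 fell at T2, among them ATP6V1D (0.51, adjusted p = 0.00316) and ATP6V1C1 (0.49, adjusted p = 0.00425) higher, and ATP6V1H (-0.35, adjusted p = 0.0017) and ATP6V1G1 (-0.34, adjusted p = 0.00253) lower. Of 6 amino acid sensing genes 1 rose and 4 fell, among them RHEB, the activator of the kinase mTOR (-0.50, adjusted p = 1.02e-04), the mTOR partner MLST8 (-0.44, adjusted p = 0.0227) and LAMTOR5 (-0.31, adjusted p = 0.0212) lower, and LAMTOR2 (0.43, adjusted p = 0.0337) higher. The LAMTOR2 call was lost with the animal as a block (adjusted p = 0.0615). At T1 no gene of the 4 lists passed in the fit of the T1 arrays alone. With the block the proton pump subunit ATP6V1F did (0.24, adjusted p = 0.089, or 0.0192 with the block).

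Markers of blood cell types were read beside these results. Of 11 T cell markers 7 were tested, and they summed to an intensity of 61950 to 101278 in prednisolone T2, 63363 to 83377 in control T2, 55789 to 79379 in prednisolone T1 and 40528 to 83734 in control T1 animals. The brightest of the 7, CD247 and CD3E (mean log2 intensity 15.09 and 14.47), weigh most in this sum. CD2 rose by 0.32 at T2 (adjusted p = 0.0373, or 0.0615 with the block), and stood 0.35 higher at T1 (adjusted p = 0.119, or 0.0491 with the block). Between samplings in prednisolone animals 4 of the 7 rose, beside 21.6% of all tested genes. Of 8 monocyte markers 2 were tested, CD14 and ITGAM, and they did not move alike. Their sum was 2023 to 7722 in prednisolone T2, 4152 to 13976 in control T2, 10269 to 50007 in prednisolone T1 and 4272 to 10815 in control T1 animals. CD14, the monocyte receptor that made up most of it, differed by -1.11 at T2 (adjusted p = 0.0336) and by -2.33 between samplings in prednisolone animals (adjusted p = 1.62e-04), while ITGAM stood at 0.22 at T2 (adjusted p = 0.362) and rose by 0.46 between samplings (adjusted p = 0.0353). At T1 CD14 stood at 1.44 (adjusted p = 0.0586, or 0.0151 with the block). SLC11A1 (0.65 at T1, -0.55 over time) and SLC1A5 (1.62 and -1.0) had the same signs as CD14 in these comparisons. So did SLC6A9, SLC25A1, SLC25A6 and SLC18A2 among others, while SLC52A2, SLC12A2 and others had the opposite signs. Both comparisons share the prednisolone T1 arrays, so a gene's signs in them are not independent of each other. At T2 CD14 was lower in prednisolone animals, whereas SLC1A5 had a mean of 11.97 in prednisolone and 11.40 in control animals. The T2 means of SLC11A1 were 11.74 and 11.86 in the same order. The part of monocytes in any solute carrier result was not tested. Of neutrophil markers 2 of 10 were tested, and CATHL1, CATHL2 and CATHL3 were dim. Of natural killer cell markers 3 of 5 were tested, and they did not move alike. NCR1 rose by 0.70 at T2 (adjusted p = 0.0417, or 0.0817 with the block). KLRD1 stood at -0.55 (adjusted p = 0.0953) and PRF1 at -0.12 (adjusted p = 0.739), and neither passed. Of B cell markers 1 of 7 and of platelet markers 2 of 6 were tested and did not pass. The 4 tested erythroid markers summed to 105502 to 367933 in prednisolone T2 and 55802 to 363120 in control T2 animals, and none passed. HBB, the brightest of the 4 (mean log2 intensity 16.98), weighs most in this sum.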

How the data were processed

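The authors deposited linear intensities, 1 value per feature and array. Per the series' design text, Feature Extraction 9.5 joined 2 scans of each array, detrended the signal and subtracted the background, and R 2.11.1 was used, per the submitters' processing notes. The sources used here do not state how arrays were normalized to each other or why 17.16% of cells were null. Each array was scaled to its 75th percentile over 23055 complete features (by at most 0.044 log2), raised to a floor of 1.669 (0.01% of values) and put on the log2 scale. Features were named through platform annotation and RefSeq for 6954 of 44407. Of the members, 65 had 2 features, which were averaged, and 3 had 4, of which those within 0.25 log2 of the brightest were averaged. SLC25A25 (gap 5.79), SLC43A3 (2.13) and SLC34A2 (1.54) thereby rest on their brighter features. Platform names were older for 9 members, such as SLC52A2. The dimmest 25% of genes, and genes with under 4 arrays in some group, were not tested, which left 2446 of 3269.

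Each comparison was fitted with limma 3.58.1 (lmFit, eBayes, two-sided) in R 4.3.3, on its own groups' arrays with a value, and the interaction on all 30. Numbers in the labels mark the same animal at T1 and T2, so they pair the samples. An animal's deviations from its group means correlated at 0.22 to 0.671 between times (median 0.445), and 15 of 15 animals correlated best with themselves. The animal therefore entered as a block (correlation 0.26) over all 30 arrays as an alternative. Members and lists were chosen with earlier results of these data known. Genes are named with values if they passed in any comparison with or without the block, or were among the 10 of smallest p in a treatment comparison, or were untested. Up to 4 passing genes of each partner list are named too. Counts of animals in a direction refer to the control mean, or over time to each animal's own change. Tables and figures were made with Python 3.11.15, numpy 2.4.6, pandas 2.3.3 and matplotlib 3.10.9. Alternatives were the scaling, the floor, the filter, the summary of features, 1 fit of all arrays, the block, animals 28 and 32 left out, and each animal left out in turn.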

Additional observations from a re-analysis of the deposited data

Results flagged for a closer look

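For 27 named members the highest and lowest array of each group were set against the others of the group (108 groups of arrays), and 5 stood apart by Dixon's criterion, which chance meets in about 1 group in 20. In prednisolone T1 animals, animal 32 had SLC1A5 at 14.42, where the other 7 lay at 12.10 to 13.03. Animal 30 held 3 of the 5: SLC26A11 at 11.28 at T1 (others 9.0 to 9.97), SLC5A3 at 8.90 at T1 (others 7.63 to 8.20) and SLC6A4 at 9.17 at T2 (others 8.54 to 8.79). Control animal 23 had SLC26A11 at 10.47 at T2 (others 9.31 to 9.76).

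For 9 members the treatment difference at T2 minus that at T1 passed in limma. It was 0.78 for SLC52A2, 0.78 for SLC35A1, 0.74 for SLC39A1, 0.70 for SLC12A2 and 0.64 for SLC6A4. It was -3.03 for SLC5A1, -0.87 for SLC6A6, -0.85 for SLC6A9 and -0.75 for SLC25A1. Without animals 28 and 32, SLC25A1 (adjusted p = 0.0521), SLC39A1 (0.0714), SLC6A6 (0.082), SLC6A4 (0.128) and SLC6A9 (0.149) did not pass.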

How the results depend on the processing

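No called difference changed sign under any alternative. The count of members at T2, 9, was 5 with the brightest feature alone, 7 with the animal as a block, 6 without animals 28 and 32, and 6 to 11 with each animal left out in turn. At T1 the count of 0 became 9 with the animal as a block and 9 in 1 fit of all 30 arrays, and was 0 to 1 with each animal left out, SLC52A2 passing without animal 17 and SLC6A9 without animal 26. The interaction's 9 became 4 without animals 28 and 32. Over the alternatives of the T2 comparison other than single animals left out, the adjusted p ranged from 1.73e-04 to 0.17 for SLC5A1, 0.016 to 0.0972 for SLC39A3, 0.0159 to 0.0558 for SLC52A2, 0.0312 to 0.0792 for SLC6A6, 0.0147 to 0.217 for SLC37A2 and 0.0032 to 0.0747 for SLC26A11. SLC35A1, SLC3A1 and SLC39A1 passed in each of these and without any single animal. With the block and without animals 28 and 32, SLC26A11 at T2 (adjusted p = 0.0747) and, over time in prednisolone animals, SLC25A1 (0.0748), SLC25A3 (0.147), SLC25A4 (0.0548), SLC25A6 (0.0546) and SLC18A2 (0.0876) did not pass. With the brightest feature alone, SLC5A1 (-1.98, adjusted p = 0.163), SLC6A4 (0.60, 0.104) and SLC6A9 (-0.76, 0.0796) lost their interaction, and SLC11A1 (-0.52, 0.0547) and SLC18A2 (-0.29, 0.134) their change over time in prednisolone animals, as did SLC11A1 without the filter (0.0546) and SLC25A1 (0.0608) and SLC25A3 (0.118) in 1 fit. Among all genes, T1 calls numbered 7, against 234 with the block, 252 in 1 fit, 0 without the filter, 0 without animals 28 and 32, 11 with the block and without these animals, and 0 to 107 with each animal left out. Control T2 against T1 had 0 genes, against 39 with the block, 22 with the block on the control arrays alone and 5 in 1 fit. The interaction had 433 genes, and 224 without animals 28 and 32. In the values as deposited, 212 genes were higher and 204 lower at T2 (262 and 183 after scaling), and 465 higher and 466 lower at T2 than T1 in prednisolone animals (528 and 388 after scaling). The block changed no member's call other than those named beside their results. The fits with the block and without animals 28 and 32, and the block on 2 groups alone, were chosen after seeing the data. The causes were not tested. Dim members, SLC5A1 above all, are limited by signal near the lowest array values.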

Other observations

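Some members outside the naming rule, chosen after their values were seen, varied between animals of 1 group. SLC16A1, which carries lactate and other monocarboxylates, was at 10.48 in prednisolone animal 26 at T2, while the other 7 prednisolone T2 animals lay at 6.86 to 7.49 and the control T2 animals at 6.61 to 7.43. SLC6A15, a neutral amino acid transporter, ranged from 1.27 to 6.65 in prednisolone T2 and from 2.18 to 5.82 in control T2 animals. The urea transporter SLC14A1 ranged from 5.07 to 8.16 in prednisolone T2 and from 5.36 to 7.11 in control T2 animals.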
